A study of Mus musculus with 3 samples.

Results

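Monocyte-derived antigen-presenting cells (APCs) of the inflamed spinal cord were compared with the monocytes sorted from the same tissue, over 22238 genes that are listed in all 3 libraries of the series. In experimental autoimmune encephalomyelitis (EAE), a mouse model of multiple sclerosis, classical monocytes leave the blood for the spinal cord. There they lose Ly6C and turn into macrophage-like and dendritic-like cells. These can show antigen to T cells on MHC class II molecules, take up debris and release chemokines and proteases.

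Female wild-type mice on a C57BL/6J background, 10 to 12 weeks old, received myelin oligodendrocyte glycoprotein (MOG) peptide in complete Freund's adjuvant, with pertussis toxin. Cells were sorted on days 14 to 15. Both spinal cord populations were CD45+ CD11b+ CD64+ Ly6G-, with Ly6Chi marking the monocytes and Ly6Clow/- the APCs, and the cells in between were left out. Each spinal cord library held cells of 18 mice from 3 experiments, and the bone marrow monocyte library, which serves here as a further value, held cells of 13 mice. Bone marrow monocytes were enriched with a kit and sorted by another gate, CD45+ CD11b+ Ly6Chi Ly6G- CD11c-, without CD64. All groups were immunized, and none was left untreated. With 1 pooled library per population there is no replicate error, no test and no p-value. Each interval covers the error of counting alone, in which copies made by PCR count as if they were separate molecules. The APC sample is labelled as bone marrow in its source field but as spinal cord in its title and tissue field, and it was taken as spinal cord.

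The APC library had 28209327 reads on the common genes and the spinal cord monocyte library 26116588. The transcript sets behind the files differ, since the APC values cover 22242 genes and the monocyte values 54432. Levels are therefore given as TPM (transcript abundance corrected for length and depth) rescaled to the same sum over the common genes. Differences are log2 ratios of reads, APCs over spinal cord monocytes, scaled by the median ratio over genes. A gene was active at over 3 TPM in one of the 2 libraries, which left 9734 genes. It was called where the whole 98% counting interval of the ratio lay beyond a 2-fold change, rescaled TPM passed a 2-fold change the same way, and its effective length (the transcript length open to reads) lay within 1.5-fold between the 2 files. The call took in 163 genes with a higher level in APCs, 1.67% of the active genes, and 131 with a lower one, 1.35%. Each count of called list members below is to be read beside these shares. A gene under 3 TPM in one library was active only through the other, which favours a call in that direction. With an assumed coefficient of variation of 0.2 between libraries, for which these data give no estimate, 75 and 23 were called. Another 14 and 18 passed the other conditions but not that on length.

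The median ratio over all active genes was -0.03 on reads and -0.10 on TPM, and the median size of a ratio was 0.26, so most active genes lay close together in both libraries. Where a pair of values is given without further words, the spinal cord monocytes come first and the APCs second. All 13 mitochondrially encoded genes had ratios above 0, with a median of 0.995, and their sum was 59402 and 130292 TPM. For 9 of these 13 genes, over 10% of the sequence also occurs in transcripts of genes that the APC values do not cover. The log2 ratio was 2.25 for mt-Co2, with 100% shared, and 1.12 for mt-Nd1, with 0%. The part of the differing transcript sets in the mitochondrial sums was not tested. The mitochondrial difference stands beside every comparison that follows, and its part in the other ratios was not tested. The sort markers followed the gates. Ly6c2, which encodes Ly6C, had 3602 TPM in the spinal cord monocyte library and 1067 in that of APCs, a log2 ratio of -1.85 (98% interval -1.89 to -1.81). Itgam, which encodes CD11b, stood at 533 and 510.0 TPM. Ly6g, which marks neutrophils, had 22 and 24 reads. Fcgr1, which encodes CD64, was not called at 274 and 138 TPM, with a log2 ratio of -0.78 (98% interval -0.83 to -0.72).

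**Figure D1:**
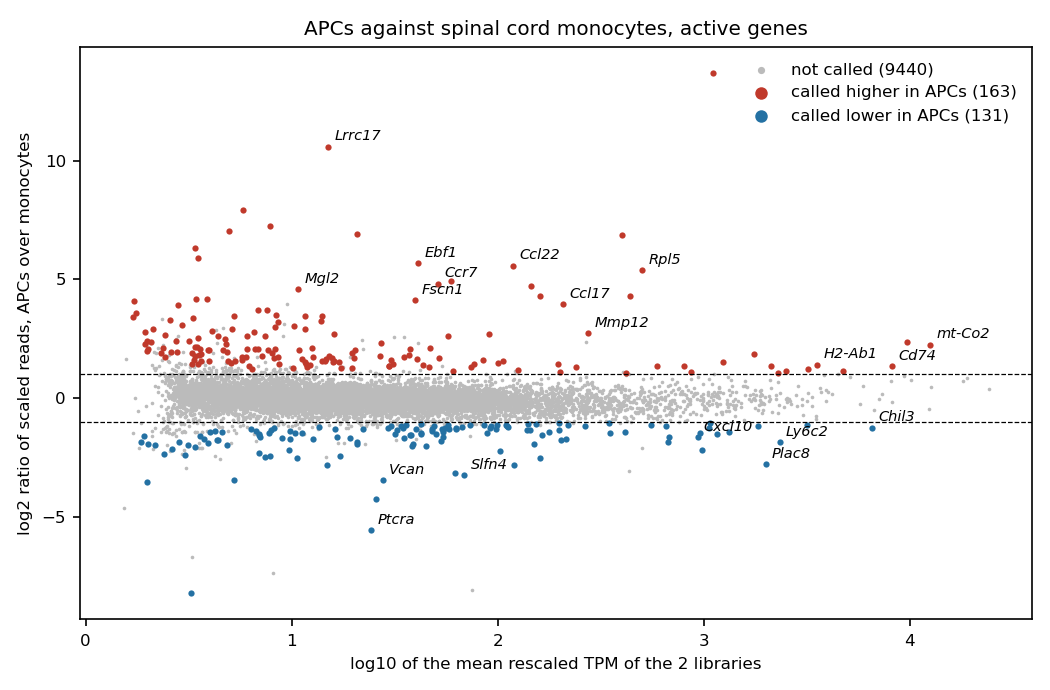
Log2 ratio of scaled reads, APCs over spinal cord monocytes (vertical axis), against log10 of the mean rescaled TPM of both libraries (horizontal axis) for 9734 active genes, 1 point per gene. Dashed lines mark a 2-fold change. Genes called higher (red, 163) and lower (blue, 131) lie on both sides of a dense band around 0, with Ccl22, Ccr7 and Ccl17 far above it and Vcan, Slfn4 and Plac8 far below.

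Genes of mature dendritic cells were among those called higher. This is the programme of antigen-loaded cells that move toward T cells. Of 18 active members, 8 were called higher and 0 lower, with a median log2 ratio of 1.25 on reads and 1.03 on TPM. The called members include Ccl17, Ccl22 and Ccr7, which the study had picked on these same libraries. The count is therefore no independent evidence of its direction. Ccl22, a chemokine that attracts T cells through CCR4, had 179 reads in the monocytes of the spinal cord and 9550 in APCs, or 4.76 and 233 TPM, and 7 reads in bone marrow monocytes. Its log2 ratio was 5.58 (98% interval 5.34 to 5.84). Ccl17, a ligand of the same receptor, had 129 reads in the monocytes of the spinal cord and 2259 in APCs and 0 in bone marrow monocytes, or 25.5 and 389.9 TPM. Its log2 ratio was 3.98 (98% interval 3.68 to 4.29). Both chemokines were thus far lower in both monocyte libraries than in APCs.

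Ccr7, the receptor that leads dendritic cells to lymph nodes, had 1 read in bone marrow monocytes, 114 reads in the monocytes of the spinal cord and 3594 in APCs. It stood at 3.46 and 99.8 TPM, with a log2 ratio of 4.82 (98% interval 4.52 to 5.15). Fscn1, which bundles actin in mature dendritic cells, stood at 3.79 and 75.9 TPM with a log2 ratio of 4.13 (98% interval 3.86 to 4.43). Ccl22 (Ensembl ENSMUSG00000031779.3) and Ccl17 lie on chromosome 8 from 94745590 to 94751699 and on chromosome 8 from 94810453 to 94812036 of GRCm38, and Ccr7 on chromosome 11 from 99144196 to 99155077.

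Il12b, the subunit shared by IL-12 and IL-23, had 29 reads in the monocytes of the spinal cord and 427 in APCs, or 0.952 and 12.8 TPM. It was the only one of 23 active genes on the cytokine list to be called (Ifng is on the T cell list), and that list's median was -0.34. Il4i1, an amino acid oxidase of myeloid cells, stood at 1.08 and 14.0 TPM, and Tmem123 at 75.3 and 176 TPM. Il12b, Il4i1 and Nudt17 lay under 3 TPM in spinal cord monocytes and were active through APCs alone. This condition favours higher calls, so the mature dendritic cell count of 8 and 0 and its median are in part set by it. Nudt17 was called on 4 and 62 reads. Cacnb3, a calcium channel subunit, also had a ratio of 3.98, but its effective length differed by 1.67-fold between the files, so it was counted apart. Relb and Cd83 lay near 0, at -0.21 and 0.10. Of the 18 active mature dendritic cell genes, 13 had a ratio above 0 and 5 below.

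Of 13 active genes of conventional dendritic cells (cDCs), 6 were called higher and 0 lower, with a median of 1.57 on reads and 1.31 on TPM. Mgl2, a galactose-binding lectin, had 21 reads in the monocytes of the spinal cord and 579 in APCs and 29 in bone marrow monocytes, or 0.818 and 20.6 TPM, with a log2 ratio of 4.59 (98% interval 3.91 to 5.39). Cd209a, the lectin DC-SIGN, had 19 and 155 reads. Dpp4, a membrane peptidase, stood at 1.63 and 6.24 TPM with a log2 ratio of 2.04 (98% interval 1.74 to 2.36). Itgae, the CD103 integrin of cDC1 cells, had 44 and 243 reads, or 0.637 and 3.24 TPM, with a log2 ratio of 2.30 (98% interval 1.78 to 2.87). Cadm1, an adhesion molecule of cDC1 cells, stood at 1.82 and 5.44 TPM, and Itgax, the CD11c integrin, at 48.9 and 121 TPM. Mgl2, Cd209a, Dpp4, Itgae and Cadm1 lay under 3 TPM in spinal cord monocytes and were active through APCs alone. That condition favours higher calls, so the count of 6 and 0 and the median are in part set by it.

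Some cDC genes were not called. Xcr1, a chemokine receptor of cDC1 cells, had 34 and 118 reads, a log2 ratio of 1.63, but at 0.424 and 1.34 TPM it was not active. Clec9a, a receptor for dead cells, stood at 4.38 and 7.40 TPM, and Batf3, a factor that cDC1 cells need, at 11.7 and 6.34 TPM with a log2 ratio of -0.68. Flt3, the receptor for the cDC growth factor, stood at 3.65 and 6.65 TPM. In bulk samples such as these, fewer cells of a type and less RNA per cell cannot be told apart.

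Of 12 active genes of MHC class II presentation, 6 were called higher, none was called lower, and all 12 had a ratio above 0. The median was 1.28 on reads and 1.11 on TPM. The summed level of the list was 2588 TPM for bone marrow monocytes, 17273 for spinal cord monocytes and 36364 for APCs. H2-Eb1, which encodes a class II beta chain, stood at 1349 and 2881 TPM with a log2 ratio of 1.36 (98% interval 1.33 to 1.39). The ratios were larger for 2 less abundant genes that tune peptide loading. H2-DMb2 stood at 17.6 and 76.0 TPM with a log2 ratio of 2.11 (98% interval 1.93 to 2.30). H2-Oa stood at 14.4 and 61.1 TPM with 2.08 (98% interval 1.84 to 2.33), and 24.9% of its 31-base words (all runs of 31 bases in its transcripts) also occur in transcripts of genes outside the APC table. H2-Ob, the partner chain of H2-Oa, had 51 and 282 reads and was counted apart for its length. Ciita, the master regulator of these genes, had 0.74 (98% interval 0.66 to 0.83) and was not called, nor was H2-DMa at 0.32.

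MHC class I loading and costimulation had medians below 0, unlike class II. Of 19 active class I loading genes none was called, and the median was -0.19, against -0.03 over all active genes. The class I loading list summed to 21785 and 24532 TPM, which is higher in APCs. Over all active genes 1.67% were called higher and 1.35% lower, so lists of this length may well hold no call. B2m, the class I light chain, had 10747 and 14609 TPM. Of 14 active genes on the costimulation and checkpoint list none was called, with a median of -0.20. Lag3, a checkpoint receptor, and Tnfrsf9, a costimulatory receptor, are not on that list and were called higher, with log2 ratios of 1.77 and 1.68. Cd80 and Cd86, the ligands of CD28, had log2 ratios of -0.24 and -0.47, and Cd274, which encodes PD-L1, had -0.45.

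**Figure D2:**
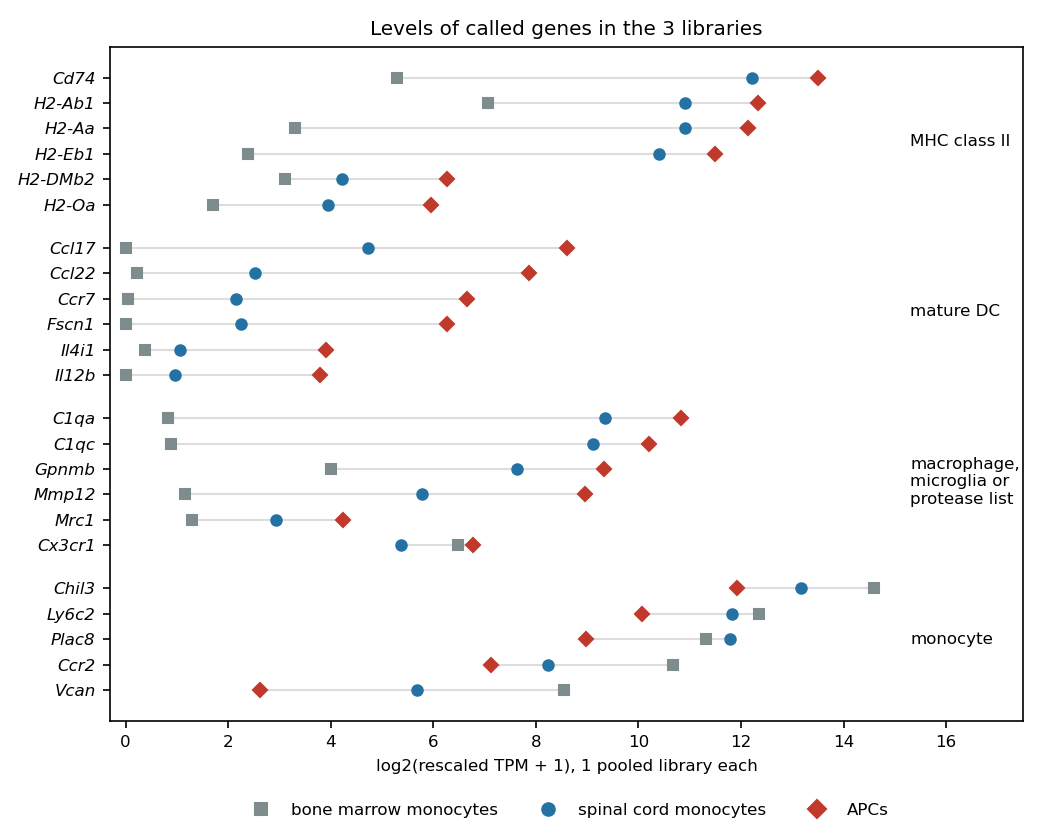
Levels of 23 called genes as log2(rescaled TPM + 1), 1 row per gene and 1 marker per pooled library: squares for bone marrow monocytes, circles for spinal cord monocytes, diamonds for APCs. APCs are the highest of the 3 libraries for every gene of the upper 3 groups and the lowest for every gene of the monocyte group, and Cx3cr1 has its lowest value in spinal cord monocytes.

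The promoters of class II genes are known for a shared set of boxes, one of which, the Y box, holds the letters CCAAT. To show how close these lie to the start, 160 bases before the RefSeq start are printed for H2-Aa (chr17:34287824-34287983, minus strand) and H2-Eb1 (chr17:34305707-34305866, plus strand) of GRCm38.p6, 5′ to 3′ on the strand of the gene. Capitals mark CCAAT on either strand.
H2-Aa: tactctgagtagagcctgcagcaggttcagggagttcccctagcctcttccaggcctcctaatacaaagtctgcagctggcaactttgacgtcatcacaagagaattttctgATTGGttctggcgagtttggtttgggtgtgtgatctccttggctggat
H2-Eb1: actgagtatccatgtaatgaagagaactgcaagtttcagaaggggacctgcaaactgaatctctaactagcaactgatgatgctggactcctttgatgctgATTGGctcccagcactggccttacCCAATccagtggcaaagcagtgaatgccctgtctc
The capitals begin 48 bases before the start in H2-Aa and 59 and 35 bases before it in H2-Eb1. The letters are common: over windows of 250 bases before to 50 after the start, 8 of 9 active class II list genes and 42.8% of 7754 active genes held them. A match is a description of letters and not a site.

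Genes of classical monocytes were lower in APCs. Of 19 active members 10 were called lower and 0 higher, with a median of -1.13 on reads and -1.11 on TPM. The 10 include Ly6c2 and Ly6c1, genes of the Ly6C gate, whose direction was set by the sort and is no evidence of its own. Plac8, a small protein of monocytes and granulocytes, had 32067 reads in the monocytes of the spinal cord and 5172 in APCs and 26735 in bone marrow monocytes, or 3506 and 500.1 TPM. Its log2 ratio was -2.78 (98% interval -2.83 to -2.73). Vcan, a matrix proteoglycan made by monocytes, had 50.1 TPM in the spinal cord monocyte library and 5.14 in that of APCs after 375 TPM in bone marrow monocytes, with a log2 ratio of -3.45 (98% interval -3.58 to -3.33). Chil3, a chitinase-like protein and the most abundant called-lower gene, had 9189 TPM in the spinal cord monocyte library and 3902 in that of APCs, a log2 ratio of -1.25 (98% interval -1.26 to -1.24), and 25.5% of its 31-base words are shared. For Vcan and Chil3 the order from bone marrow monocytes to spinal cord monocytes to APCs was a steady decline, whereas Plac8 was highest in spinal cord monocytes.

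Ifitm6 and Ifitm3, of a family that blocks viral entry, had log2 ratios of -2.22 and -1.43, and Thbs1, a matrix glycoprotein, had -1.26. Lyz2, which encodes lysozyme, was not called at 14312 and 10443 TPM, nor was Cd14, a receptor for bacterial lipopolysaccharide, at 2447 and 1378 TPM.

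Type I interferon response genes were lower as a group. These are antiviral genes switched on by signals from the interferon receptor. Of 45 active members 16 were called lower and 0 higher, and all 45 had a ratio below 0. The median was -0.97 on reads and -1.05 on TPM. Summed over the list, bone marrow monocytes had 6939 TPM, spinal cord monocytes 11619 and APCs 6968, so the spinal cord monocytes had the highest sum of the 3. Slfn4, a Schlafen protein of myeloid cells, had 8651 reads in the monocytes of the spinal cord and 998 in APCs and 422 in bone marrow monocytes, or 125 and 13.3 TPM, with a log2 ratio of -3.26 (98% interval -3.38 to -3.15). Isg15, a ubiquitin-like modifier, had 4218 reads in the monocytes of the spinal cord and 1706 in APCs, or 517 and 185 TPM, with a log2 ratio of -1.45 (98% interval -1.55 to -1.36), and 12.8% of its 31-base words are shared. Rsad2, the antiviral enzyme viperin, stood at 79.3 and 29.8 TPM. Oas1a, Oas2, Oas3 and Oasl1, of the oligoadenylate synthetase family that senses double-stranded RNA, had log2 ratios of -1.12, -1.33, -1.18 and -1.63. Mx1, an antiviral GTPase, had -1.72 and was counted apart for its length, and its relative Mx2 was called with -1.48. Slfn4 stood far below the rest of the list, whose other called members had ratios between -1.67 (Cmpk2) and -1.12 (Oas1a). Irf7 and Ly6e were not called, with -0.83 and -0.10.

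**Figure D3:**
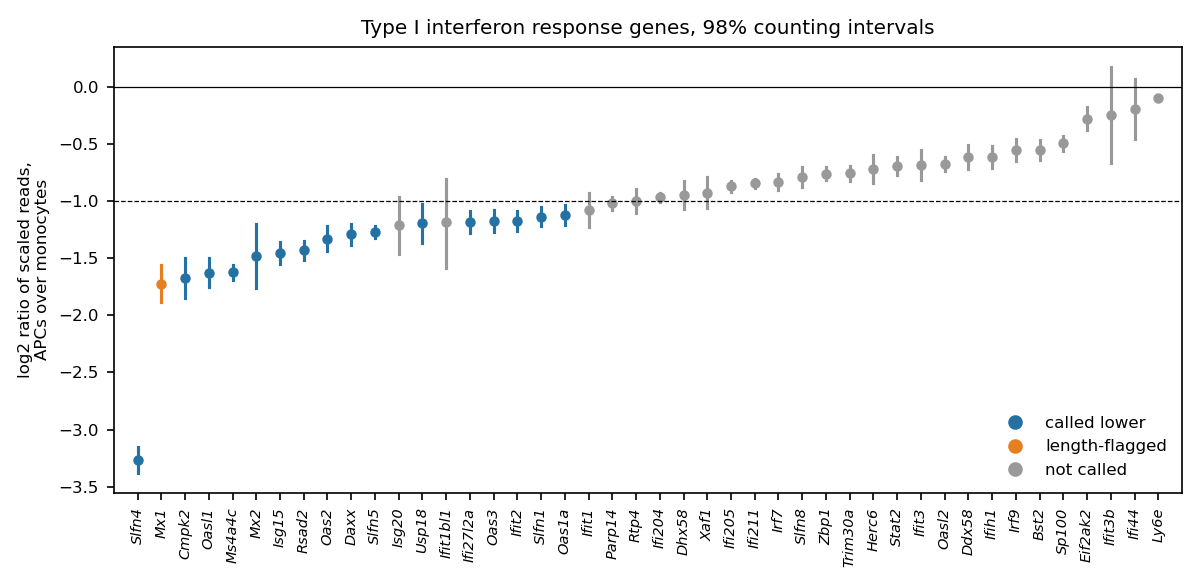
Log2 ratio of scaled reads, APCs over spinal cord monocytes, for 44 active type I interferon response genes in order of ratio, with bars for the 98% counting interval. The dashed line marks a 2-fold lower level. All points lie below 0, from Slfn4 at -3.26 to Ly6e at -0.10, and the 16 called genes are blue.

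Interferon-stimulated response elements share the letters GAAANNGAA. The 160 bases before the RefSeq start are printed for 4 called-lower genes of this list, picked because the window holds the letters and its start lies close to that of the gene model. All are on the minus strand of GRCm38.p6 and are written 5′ to 3′ on the strand of the gene, with the letters of either strand in capitals (overlapping matches run together). The positions are chr4:156200819-156200978 for Isg15, chr5:120907526-120907685 for Oas1a, chr12:26456453-26456612 for Rsad2 and chr5:120777660-120777819 for Oas3.
Isg15: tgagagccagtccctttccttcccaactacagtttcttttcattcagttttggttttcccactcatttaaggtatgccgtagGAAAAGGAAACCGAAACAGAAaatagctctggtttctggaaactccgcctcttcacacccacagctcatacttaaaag
Oas1a: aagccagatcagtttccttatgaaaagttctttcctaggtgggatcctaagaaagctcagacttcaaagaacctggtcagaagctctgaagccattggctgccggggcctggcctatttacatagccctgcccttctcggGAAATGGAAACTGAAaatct
Rsad2: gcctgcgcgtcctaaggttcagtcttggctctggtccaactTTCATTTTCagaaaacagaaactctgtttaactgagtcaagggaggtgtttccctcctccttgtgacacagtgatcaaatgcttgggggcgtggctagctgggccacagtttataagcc
Oas3: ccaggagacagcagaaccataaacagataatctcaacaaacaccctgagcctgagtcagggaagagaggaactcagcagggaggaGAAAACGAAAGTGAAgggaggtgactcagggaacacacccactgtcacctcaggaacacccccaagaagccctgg
In the windows of 250 bases before to 50 after the start, the letters occurred in 19 of 33 active list genes with a promoter entry and in 5 of the 12 that were called lower. They occurred in 9.39% of all active genes, 13.3% of the 113 called higher and 17.3% of the 104 called lower. Of all 32851 windows in the table, 8.56% held them. Leaving out the interferon lists, 13.3% of 90 called-lower genes did.

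The interferon gamma list had 3 of 26 active members called lower and 0 higher, with a median of -0.75. Ifi47, an immunity-related GTPase, stood at 312 and 92.5 TPM with a log2 ratio of -1.78 (98% interval -1.86 to -1.71). Cxcl10 and Cxcl11, ligands of CXCR3 on activated T cells, had 1423 and 444 TPM and 19.1 and 6.34 TPM. Cxcl9, the other ligand of that receptor, had a log2 ratio of -0.42 on reads but 459.6 and 229.7 TPM, with effective lengths 1.54-fold apart. Ifng itself, made by T and NK cells, was called higher, with 129 and 443 reads.

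The chemokines differed in both directions. Besides Ccl17 and Ccl22, 4 of 20 active chemokine genes were called, all lower: Cxcl10, Cxcl11 and the ligands of CCR2, Ccl2 and Ccl7. Ccl2 had 11245 reads in the monocytes of the spinal cord and 3417 in APCs, or 1059 and 290.5 TPM, with a log2 ratio of -1.87 (98% interval -1.93 to -1.80), and Ccl7 stood at 77.3 and 30.5 TPM. Ccr2, their receptor and the one that lets monocytes leave the bone marrow, was also called lower, with -1.13. Ltb4r1, a leukotriene receptor, stood at 82.6 and 23.7 TPM with -1.81 (98% interval -1.97 to -1.65). Cx3cr1, the fractalkine receptor, which is also on the microglia list, was called higher with 1.29. Chemokines with high levels in both libraries, such as Cxcl2 (-0.28) and Ccl3 (0.10), were not called.

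Of 18 active macrophage genes 3 were called higher and none lower, with a median of 0.53. C1qa, a chain of the complement starter C1q, stood at 649.5 and 1829.9 TPM with an interval of its log2 ratio from 1.46 to 1.54, and C1qc at 552 and 1187 TPM with one from 1.06 to 1.14. C1qb, the remaining chain, had 0.90 and was not called. Mrc1, the mannose receptor, was called with 1.41. Gpnmb, a glycoprotein of lipid-laden macrophages, had a ratio of 1.07 on reads and 1.69 on TPM. Apoe, a lipid carrier, had 0.94 on reads and 0.32 on TPM, with effective lengths 1.58-fold apart, and was not called.

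Mmp12, a metalloprotease of macrophages that degrades elastin, had 1789 reads in the monocytes of the spinal cord and 13171 in APCs and 108 in bone marrow monocytes, or 53.9 and 496 TPM. Its log2 ratio was 2.73 (98% interval 2.65 to 2.82) on reads and 3.20 on TPM. Among the 28 active lysosome genes, 25 had a ratio above 0 and 4 were called higher, none lower. These were Ctsk and Ctsf, which encode cathepsins, Cd63, a tetraspanin, and Atp6v0d2, a proton pump subunit, which stood at 9.44 and 30.7 TPM. Cd81, a tetraspanin, stood at 53.4 and 159 TPM with 1.56 (98% interval 1.46 to 1.67), and Pdgfb, a growth factor, at 6.18 and 17.4 TPM.

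The microglia list was higher in APCs: 9 of 20 active members were called higher and none lower, with a median of 1.14, and the list summed to 607 and 1168 TPM. Among the defining markers, Sall1, a factor of microglial identity, had 300 and 1415 reads with a log2 ratio of 2.09, and Tmem119 and P2ry12, surface proteins of microglia, were called higher with 1.33 and 1.16. Sparc, a matrix protein, stood at 53.2 and 148 TPM with 1.46 (98% interval 1.37 to 1.55). Olfml3, a secreted protein of microglia, stood at 17.1 and 43.5 TPM with 1.59 (98% interval 1.49 to 1.69). The CD45-high gate is meant to leave out microglia, and the part of such cells in these values was not tested. The list of CNS-associated macrophages had 5 active members with a median of 0.61, of which Mrc1 was called higher with 1.41, and summed to 154 and 151 TPM. It had 6 of 11 members at or under 3 TPM in APCs, with 0 reads there for Lyve1, Cd209f and Cd209b.

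Most transcription factors were not called, as for active genes of any kind, of which 1.67% were called higher and 1.35% lower. Of 33 active myeloid factors, Bhlhe41, which is also on the microglia list, was called higher and Id3 lower, with a median of -0.19. A list of 14 of the factors that the study had picked on these same libraries, and which is therefore no independent evidence of its direction, had 8 called lower and 1 higher. Id1 and Id3, inhibitors of helix-loop-helix factors, stood at 131 and 46.2 TPM and 33.2 and 8.21 TPM. Jarid2, a cofactor of Polycomb, stood at 71.1 and 28.8 TPM. Bach1, a repressor bound by heme, had a log2 ratio of -1.28, and Hopx, a homeodomain protein that does not bind DNA, -1.35. Atf3, a stress factor, stood at 1499 and 650.1 TPM with -1.05 (98% interval -1.07 to -1.02) and was the only one of 22 immediate early genes to be called. None of 16 NF-kappa B genes, 28 cytokine receptors, 23 glycolysis genes, 13 arginine genes, 7 Fc receptors or 27 cell division genes on the lists was called, with medians of -0.29, -0.17, -0.10, -0.14, 0.17 and 0.32. At the shares over all active genes, lists of these lengths may well hold no call. Of genes off these lists, named after their values were seen, Il2ra, the alpha chain of the IL-2 receptor, was called higher with 1.75, and Smox, a polyamine oxidase, lower with -1.37. Arg1 and Nos2, the enzymes that compete for arginine, had 0.44 and -0.13.

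**Figure D4:**
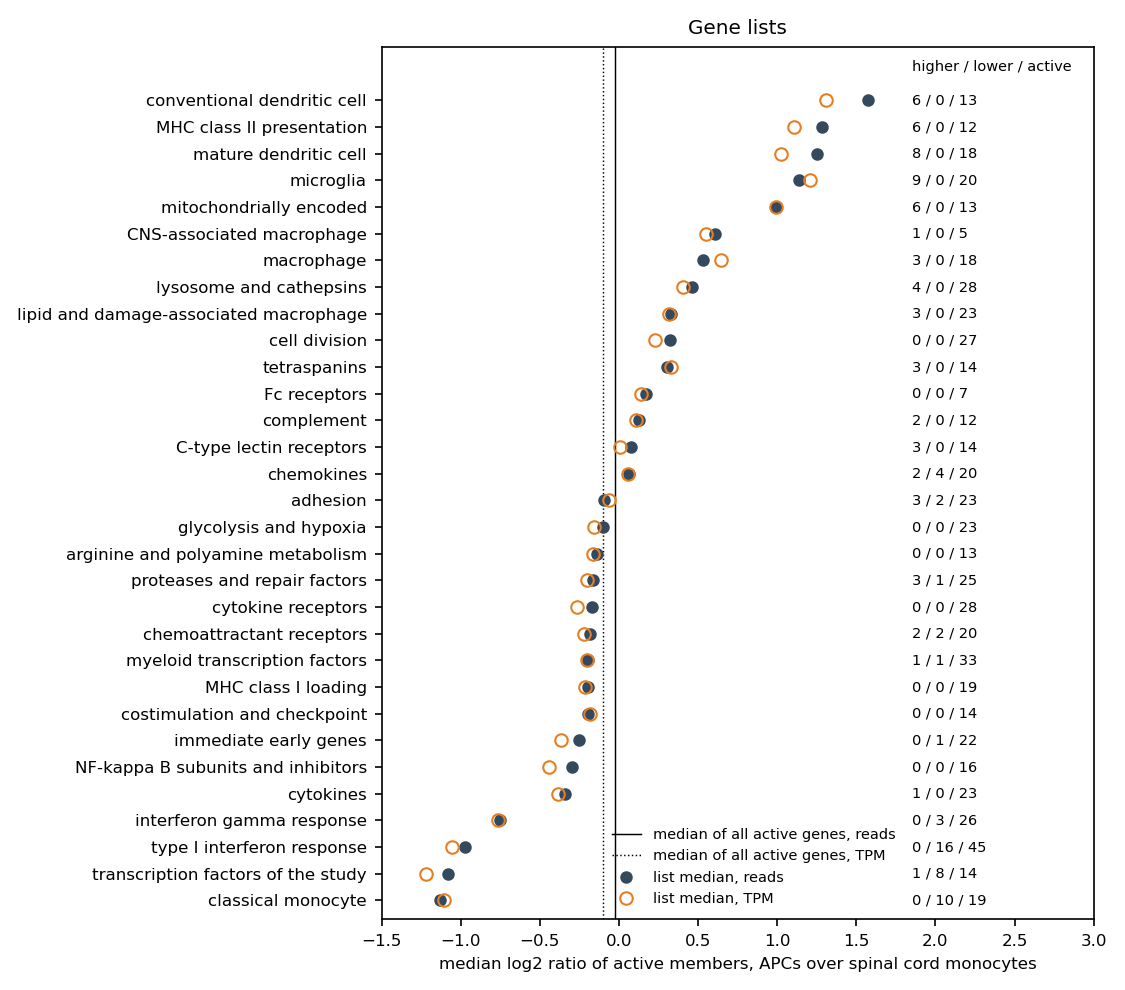
Median log2 ratio of the active members of each gene list, APCs over spinal cord monocytes, on reads (filled) and on rescaled TPM (open), with the medians of all active genes as lines. Numbers at the right give members called higher, called lower and active. The dendritic cell, class II and microglia lists lie above 1 on both scales. The classical monocyte list and that of the study's transcription factors lie below -1 on both.

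Genes of most other cell types were low in both libraries. The summed TPM of 13 T cell genes was 76.3 in spinal cord monocytes and 138 in APCs, that of 7 B cell genes 15.4 and 31.3, and that of 7 NK cell genes 25.7 and 43.5. Cd3e, of the T cell receptor complex, stood at 6.74 and 11.3 TPM. The 6 plasmacytoid dendritic cell genes summed to 38.6 and 71.1 TPM, and 6 mast cell and basophil genes to 2.37 and 7.82 TPM. The only called gene of the plasmacytoid list is also on the microglia list. Endothelial genes summed to 172 and 96.8 TPM, of which 76.2 and 35.4 TPM were of Ly6c1, a gene of the Ly6C gate and the only called member of that list. Astrocyte genes summed to 41.0 and 63.3, oligodendrocyte genes to 79.6 and 77.9, neuron genes to 2.30 and 2.44, and fibroblast and mural cell genes to 9.48 and 6.38. In APCs, the members at or under 3 TPM were 3 of 13 for T cells, 5 of 7 for B cells, 4 of 7 for NK cells and 7 of 7 for neurons. The sums of T, B and NK cell genes were higher in APCs along with the dendritic cell genes, and their part in these values was not tested.

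Neutrophil genes split. Ngp, a granule protein, stood at 24.3 and 157 TPM with 2.69 (98% interval 2.52 to 2.86), and Retnlg, a resistin-like protein, at 16.7 and 57.9 TPM with 1.83 (98% interval 1.48 to 2.20). Elane, neutrophil elastase, was called lower on 48 and 13 reads, and S100a8, a calcium-binding alarmin, had -0.39. The whole list of 12 summed to 1342 and 1442 TPM.

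Several of the largest ratios belonged to genes that were at or near 0 in spinal cord monocytes. Lrrc17, a secreted leucine-rich repeat protein, had 0 reads in either monocyte library and 1191 in APCs, at least 358-fold higher against a floor of 3 reads in the spinal cord monocyte library. Asdurf had 0 and 92 reads and Pagr1a 0 and 61 reads, and Pagr1a had 106 in bone marrow monocytes. The unnamed gene model AC129217.1 likewise had 0 and 117 reads. Cdh11, a cadherin of mesenchymal cells, had 7 and 1107 reads, and the fibroblast and mural cell list summed to 9.48 and 6.38 TPM. Ebf1, a factor of the B cell lineage, had 77 and 4458 reads. The B cell list summed to 15.4 and 31.3 TPM, and both of its 2 active members had ratios above 0. Cd22, an inhibitory lectin, was one of them and was called higher with 1.28. Cd79a, a chain of the B cell receptor complex, had 6 and 10 reads. The part of B cells in the value of Ebf1 was not tested.

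A share of the calls fell on genes whose sequence also occurs in transcripts of genes outside the APC table. Over 10% of the 31-base words were shared for 49 of the 163 genes called higher (30.1%), 19 of the 131 called lower (14.5%) and 1410 of all active genes (14.5%). Rpl5 and Rpl12, which encode ribosomal proteins, had log2 ratios of 5.39 and 4.28 and shared 44.7% and 49.8% of their words, and Atp5g2, an ATP synthase subunit, had 4.28 with 40.2%. Olfr46, an olfactory receptor, had 3.91 with 41.9%. Of 13 active olfactory and vomeronasal receptor genes, a set picked out after the values were seen, 9 were called higher and 1 lower. Only these 13 of 1474 were active, Olfr46 through APCs alone at 0.341 and 5.30 TPM. The directions of these calls are thus in part set by the condition on TPM. Over all active genes 1.67% were called higher and 1.35% lower. Among the 13 mitochondrially encoded genes 6 were called higher, and 9 were over 10% shared. mt-Co2 and mt-Atp6, with 100% and 99.5%, had 2.25 and 2.35. mt-Nd1, with 0%, had 1.12. The part of the transcript sets in these ratios was not tested. Ccl22, Ccl17, Ccr7, Fscn1, Il12b, Plac8 and Vcan shared 0% of their words.

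Among the other genes with the largest ratios below 0, Ptcra, the pre-T cell receptor alpha chain, had 929 and 21 reads with a log2 ratio of -5.57 (98% interval -6.36 to -4.90). Rsc1a1, a regulator of sugar transport, had 186 and 0 reads, at least 68.7-fold lower against the same floor in the APC library. Ttr, transthyretin, and Enpp2, autotaxin, both abundant in choroid plexus, had 1967 and 240 reads and 1395 and 218 reads, and neither had a read in bone marrow monocytes. Alkbh5, an RNA demethylase, stood at 274 and 48.4 TPM with -2.53 (98% interval -2.58 to -2.49). Dmkn had 375 and 21 reads, and Sag, the arrestin of the retina, 101 and 9 reads. Serpinb10 and Serpinb8, protease inhibitors, had -3.47 and -2.53, Slc28a2, a nucleoside transporter, -2.43, and Mpp7, a scaffold protein, -2.50. Rps27rt, a copy of a ribosomal protein gene, was among the 10 most abundant called genes at 4427 and 1909 TPM.

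At the edge of the call, Chn2, Cd63 and Ctsk lay just inside, with intervals that began at 1.01, 1.01 and 1.02. Hmgn1, Timp2 and Gas6 lay just outside, with intervals that began under 1. On the lower side Smim7, Rara and Elane were just inside, and Necap1, Apol8 and Il18rap just outside.

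Reads and TPM agreed where the effective lengths did. Pearson's r between the log2 ratios of both scales, across genes, which are not independent, was 0.96 over 8863 active genes within the length limit and 0.70 over 837 past it. Of the genes past 2-fold by the interval on reads, TPM passed for 163 of 169 higher and 131 of 136 lower within the limit. Past the limit it did for 14 of 20 and 18 of 26. The limit was passed by 840 active genes, of which 731 were longer in the APC values. The widest gaps were those of Ltbp1, Gm42417, Brca2, Nhej1, Chd9 and Ovgp1. Brca2, a DNA repair gene, had 88 and 106 reads but 4.90 and 0.495 TPM.

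**Figure D5:**
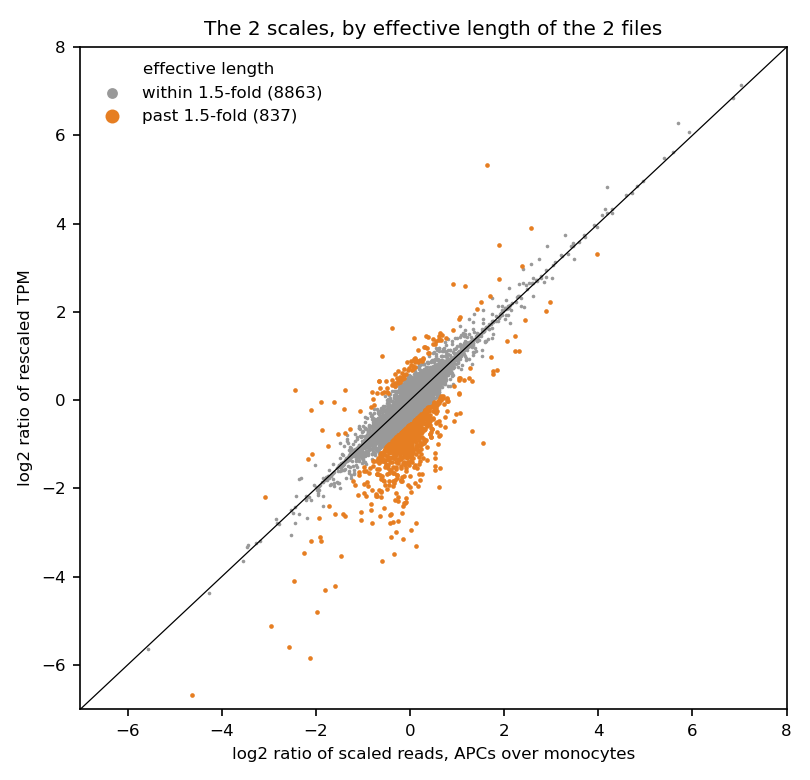
Log2 ratio of rescaled TPM (vertical axis) against that of scaled reads (horizontal axis), APCs over spinal cord monocytes, for active genes with a TPM above 0 in both libraries; 1 gene lies outside the axes. Genes within the limit of 1.5-fold on effective length (grey, 8863) follow the diagonal, and those past it (orange, 837) spread mostly below it.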

How the data were processed

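The authors quantified each library with Salmon 0.14.1 (mm10, per the submitters' processing notes) on GENCODE transcripts and deposited TPM per gene, which they normalized for effective length and library size. They also deposited estimated counts of reads, not normalized, and effective lengths. The transcript set of the APC values is not described in the sources used here. Counts were rounded to whole reads. Gene symbols and positions were taken from the M21 annotation of GENCODE (GRCm38), where 22022 identifiers matched with their version, 199 without it and 17 not at all. The members and gene lists were chosen with earlier results of these data known.

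The log2 ratio was the median of the ratio of gamma distributions of reads plus 1, with its 98% interval. The call takes the generalized fold change that the study used, here as the interval bound nearest 0, with conditions on TPM and length added. Called genes were named by rule: the 15 with the largest ratios by the interval bound nearest 0 in each direction (leaving out Gm-numbered and Rik names), the 10 most abundant, 3 on each side of the call's edge, 6 length-flagged genes, the called list members and up to 5 abundant members of each list. Other genes were named after their values were seen. The share of 31-base words in transcripts outside the APC table was computed on GENCODE M21, and was chosen after seeing the data. RefSeq promoters were matched by symbol for 7754 active genes. The script was tested on simulated data. Some genes are left out of the text. Computations ran in Python 3.11.15 (scipy 1.17.1, pandas 2.3.3, numpy 2.4.6), and TMM factors came from edgeR 4.0.16 in R 4.3.3.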

Additional observations from a re-analysis of the deposited data

Results flagged for a closer look

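The reads of genes outside the APC table were not part of the comparison. In spinal cord monocytes 1167121 reads, 4.28% of the library, lay on them. The 3 with most reads were Gm42418 with 299705 reads, mt-Rnr2, a mitochondrial ribosomal RNA, with 80070 and Gm28661 with 71046. Gm21748 was listed for APCs alone, with 247 reads, above the floor of 3. No value for these genes in the other population was analysed here.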

How the results depend on the processing

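No paired analysis was possible because each population is 1 pooled library, and no library could be left out. Against 163 genes called higher and 131 lower, rescaled TPM past 2-fold alone gave 321 and 312, no threshold on TPM 335 and 199, and a plain 2-fold change with no interval 275 and 225. An assumed coefficient of variation of 0.2 between libraries left 75 and 23, and one of 0.4 left 39 and 8, so the counts rest on counting error alone. Without genes over 10% shared sequence, chosen after seeing the data, there were 114 and 112. The other alternatives (total reads, TMM or other size factors, reads alone or divided by effective length, a TPM of 4, other length limits, a bound at 0.001, 0.5 reads added, ribosomal and mitochondrial genes left out) stayed within 1.5 times. None of the 1470 recomputed ratios of called genes changed sign, which the call's conditions on reads, TPM and length had set in advance. Of 37 list medians 3 did: that of CNS-associated macrophage genes was -0.15 with no TPM threshold, that of C-type lectin receptors -0.034 on reads divided by effective length, and that of oligodendrocyte genes 0.021 with total reads.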
